A study of Homo sapiens with 6 samples.

Results

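A set of 9 genes that are used as markers of stem-like and progenitor-like cells in liver cancer was followed in Hep G2 cells with and without overexpression of EFTUD2, a GTPase of the U5 snRNP in the spliceosome. The 9 genes were CD44, EPCAM, PROM1 (CD133), CD24, ANPEP (CD13), SALL4, CD47, DLK1 and LIN28B. They were chosen by symbol from a table of 23524 genes, and 9 of 9 were among the 17222 genes tested. Hep G2 is an established line derived from a human liver tumor. Control cells were stably infected with the empty lentivirus and EFTUD2 cells with a lentivirus carrying EFTUD2, and stably infected cells were selected in puromycin. Each group had 3 RNA-seq libraries, made from the RNA of stably infected cultures for which the study's methods describe no cloning or sorting. The labels do not say whether the 3 libraries of a group came from separate cultures, so the p-values measure only the spread between these libraries, which may be technical. The comparison addressed whether more EFTUD2 went with other mRNA levels of these markers.

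Most of these genes encode proteins of the cell surface. CD44 binds hyaluronan and osteopontin, EPCAM is an epithelial adhesion protein of fetal hepatoblasts, PROM1 marks membrane protrusions, ANPEP is an aminopeptidase, and CD24 and CD47 carry signals that restrain phagocytosis through SIGLEC10 and SIRPA. DLK1 is a Delta-like protein of fetal liver, related to the Notch ligands. SALL4 is a zinc finger factor of embryonic stem cells, and LIN28B is an RNA-binding protein that blocks the maturation of let-7 microRNAs. EPCAM, PROM1 and CD24 are found in ductal and progenitor cells of the liver, and in liver tumors all 9 have been used to mark cells with stem-like behavior.

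Values were FPKM, that is, sequenced fragments scaled to transcript length and library size. Values by library are given in the order of replicates 1 to 3. EFTUD2 itself (Entrez gene 9343), the check of the labels, was at 41.1, 54.4 and 46.3 FPKM in the 3 controls against 106.6, 102.9 and 109.5 FPKM in the 3 EFTUD2 libraries. All 3 EFTUD2 libraries lay above all 3 controls, with a log2 fold change of 1.16 (SE 0.12) and an adjusted p of 0.13 by limma over all genes tested. Transcripts of the vector and of the cell's own gene were not separated. The libraries did not resemble each other equally within the EFTUD2 group. The SD over genes of the log2 difference was 0.23 between EFTUD2 replicates 1 and 2, but 0.51 and 0.60 between replicate 3 and these, and it ranged from 0.21 to 0.36 among controls. Results that rest on EFTUD2 replicate 3 are therefore given with and without it.

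By limma on log2(FPKM + 1), 0 of the 9 markers passed an adjusted p of 0.05, and 0 of all 17222 genes did (0.0%), the smallest adjusted p of any gene being 0.13. At an unadjusted p under 0.05 there were 2118 genes, 757 higher and 1361 lower with EFTUD2, and 2 of the 9 markers, CD44 and LIN28B, were among them. CD44 was the 1 marker for which all EFTUD2 libraries lay above all controls, a pattern found in 7.92% of all genes. LIN28B was the 1 marker for which all EFTUD2 libraries lay below all controls, as was found in 19.4% of all genes. The other 7 markers overlapped between the groups. The median log2 fold change was 0.16 over the 9 markers and -0.07 over all genes tested, with 5 markers above 0 and 4 below. In these bulk libraries, fewer cells with a transcript and less of it per cell cannot be told apart.

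**Figure D1:**
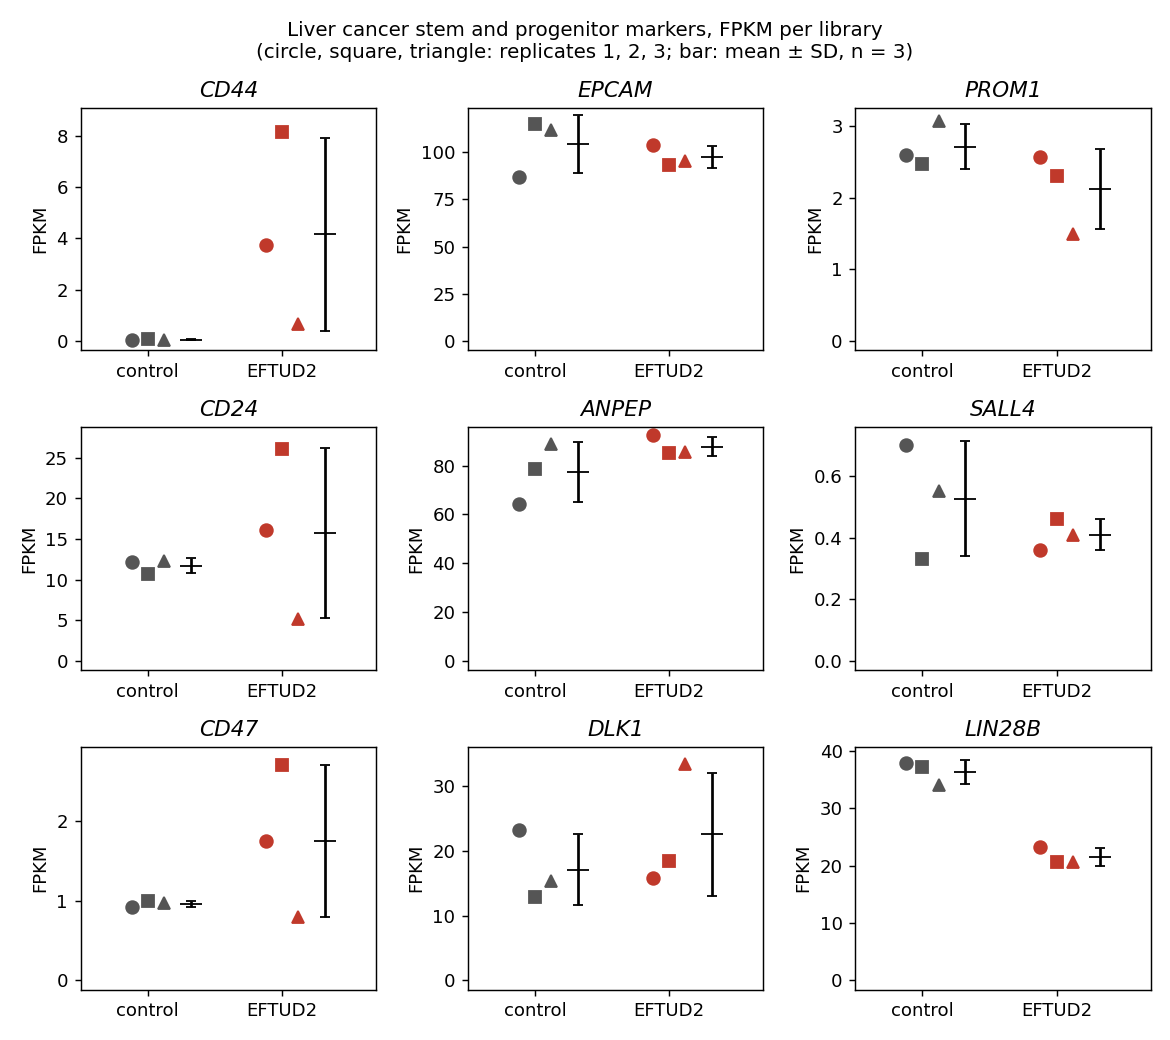
FPKM (y axis, linear) of each marker in the 3 control libraries (grey) and the 3 EFTUD2 libraries (red), with mean ± SD beside the points. LIN28B is lower in all 3 EFTUD2 libraries with little spread, and CD44 lies between 0.65 and 8.13 FPKM with EFTUD2 against at most 0.07 FPKM in controls.

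LIN28B (Entrez gene 389421, chr6:104936616-105083332, plus strand, GRCh38) was at 37.95, 37.2 and 34.0 FPKM in the 3 controls against 23.3, 20.6 and 20.6 FPKM in the 3 EFTUD2 libraries. The lowest control lay well above the highest EFTUD2 library, and the libraries within each group were close together. The mean was 36.4 ± 2.12 FPKM (SD, n = 3) in controls and 21.5 ± 1.55 FPKM (SD, n = 3) with EFTUD2, a ratio of 0.591. The log2 fold change was -0.73 (SE 0.10, 95% confidence interval -0.98 to -0.48), with an adjusted p of 0.21 by limma and p = 0.1 in the exact permutation test, two-sided, which is the smallest that 3 against 3 libraries can give. By its unadjusted p (0.000235) it ranked 17 of all genes tested, and 1.06% of genes had a fold change at least as far below 0. Without EFTUD2 replicate 3 the log2 fold change was -0.71 (SE 0.09), with an unadjusted p of 0.000307 and an adjusted p of 0.045 by limma. Over all alternatives the fold change lay between -0.79 and -0.62 and the adjusted p between 0.0077 and 0.66. LIN28B and the antisense gene LIN28B-AS1 overlap, and whether the counting used strand is not given in the sources used here.

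LIN28B is both a repressor of let-7 and, through its own 3′ UTR, a known let-7 target. The 8 members of the human let-7 family looked up in RefSeq share the seed shown in capitals (bases 2 to 8). These are shown because that seed is what the sites in LIN28B pair with.
hsa-let-7a-5p: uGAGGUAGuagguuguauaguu
hsa-let-7e-5p: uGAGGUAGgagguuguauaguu
hsa-let-7i-5p: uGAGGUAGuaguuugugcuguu
In the LIN28B 3′ UTR of GENCODE 29 (GRCh38, 4549 bases) there were 4 perfect matches to this seed, CTACCTC, in capitals here within 30 bases each on the plus strand.
LIN28B site chr6:105078805-105078834: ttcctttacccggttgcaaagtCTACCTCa
LIN28B site chr6:105081232-105081261: tattatgtactgatgatagtaaCTACCTCt
LIN28B site chr6:105081414-105081443: ttactctgtttacagcaaaaggCTACCTCa
LIN28B site chr6:105082853-105082882: agcttgaaaatgatggtgttgaCTACCTCt
The matches began at bases 44, 2471, 2653 and 4092 of the 3′ UTR, and the first and the third are followed by an A. At least 4 such matches were present in 12 of 19132 genes (0.0627%) and at least 1 in 1642 genes (8.58%). Among the other 8 markers, SALL4 had 1 match and the rest had none. For each gene, the 3′ UTR of only 1 annotated transcript was searched. It was 207 bases long for CD47, 421 for EPCAM and 460 for ANPEP, so absence of a match holds only for these forms. The microRNAs themselves were not measured in these poly-A libraries, and a match is only a description of the letters in the window.

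Other genes of the oncofetal and let-7 group were then read from the same fit. Of 16 genes listed for this group, 15 were in the table and 13 were tested, of which 0 passed the adjusted threshold, 0 were higher and 5 were lower in every EFTUD2 library than in every control, with a median log2 fold change of -0.26. Over all genes tested the shares were 7.92% higher and 19.4% lower, and the median was -0.07, which is the background for each list given here. The 5 were IGF2BP1, HMGA1, DIS3L2, DGCR8 and DICER1. The oncofetal genes GPC3, IGF2 and AFP overlapped between the groups. Their log2 fold changes were 0.40 (SE 0.23), 0.27 (SE 0.43) and -0.40 (SE 0.49). IGF2BP1, an oncofetal mRNA-binding protein whose 3′ UTR held 4 let-7 seed matches, was at 76.5, 88.4 and 79.8 FPKM in controls and at 67.8, 61.2 and 43.0 FPKM with EFTUD2. Its log2 fold change was -0.52 (SE 0.18, adjusted p by limma 0.40). HMGA1, a chromatin protein of fetal and tumor cells with 1 match, was at 316, 393 and 403 FPKM in controls and at 287, 275 and 276 FPKM with EFTUD2, a log2 fold change of -0.40 (SE 0.13, adjusted p by limma 0.40). The spread differed between these genes. DGCR8, the partner of Drosha in the nuclear cut of microRNA precursors, stood at 82.5%, 88.0% and 33.3% of its control mean in EFTUD2 replicates 1 to 3, lowest in replicate 3. DIS3L2, the exonuclease that degrades let-7 precursors tailed after LIN28 binding, had a log2 fold change of -0.29 (SE 0.12, adjusted p by limma 0.40). LIN28B stood at 64.0%, 56.6% and 56.8% of its control mean in the same libraries. TRIM71, a let-7 target with 6 matches, was at 104.5%, 92.9% and 129% and HMGA2, with 4 matches, at 92.8%, 73.2% and 74.8%. TRIM71 was above its control mean in 2 EFTUD2 libraries, unlike LIN28B. DICER1 had 0 matches, and IGF2BP2 and IGF2BP3, whose groups overlapped, had 1 match each. Hepatocyte markers were tested beside LIN28B. Of 21 hepatocyte markers tested, 7 were higher and 1 was lower in every EFTUD2 library than in every control, beside 7.92% and 19.4% of all genes, with a median log2 fold change of 0.36 and 0 past the adjusted threshold, and their summed level was 8530 to 12544 FPKM in controls and 13195 to 18365 FPKM with EFTUD2. No hepatocyte marker was listed at 0 in all libraries. Their part in the LIN28B result was not tested.

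**Figure D2:**
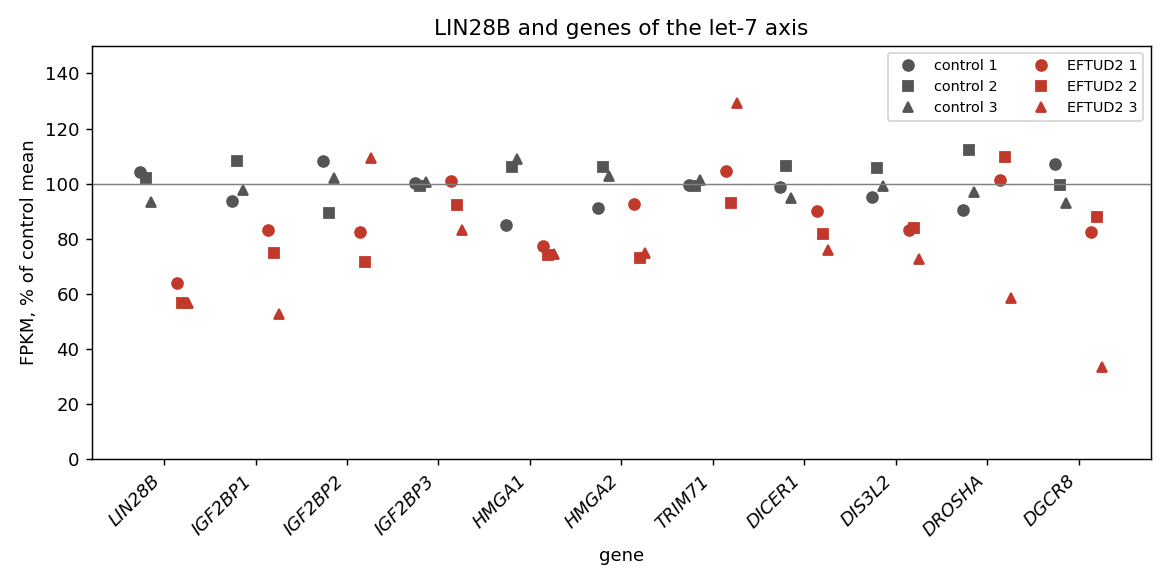
FPKM of LIN28B and 10 genes of the let-7 axis in each library, as percent of the control mean of the gene (y axis, starting at 0), with controls in grey and EFTUD2 libraries in red. LIN28B lies at 56.6% to 64.0% in the EFTUD2 libraries, whereas TRIM71 lies at 92.9% to 129%.

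CD44 (Entrez gene 960, chr11:35138870-35232402, plus strand) was at 0.06, 0.07 and 0.03 FPKM in the 3 controls against 3.73, 8.13 and 0.65 FPKM in the 3 EFTUD2 libraries. It was near the lowest value the table can show in all controls and above 0.6 FPKM in every EFTUD2 library, but on the log2 scale these differed among themselves by more than in any other marker. The mean was 0.0533 ± 0.0208 FPKM (SD, n = 3) in controls and 4.17 ± 3.76 FPKM (SD, n = 3) with EFTUD2. The log2 fold change on the log2(FPKM + 1) scale was 1.98 (SE 0.56, 95% confidence interval 0.65 to 3.31), with an adjusted p of 0.40 by limma and p = 0.1 in the exact permutation test, two-sided. Only 39 genes (0.226%) had a fold change at least as large. In control cells, 97.9% of all genes tested had a higher mean than CD44. The fold change of such a low gene depends on the pseudocount, and over the alternatives it lay between 1.41 and 5.48, with adjusted p between 0.0077 and 0.68. Without EFTUD2 replicate 3 it was 2.64 (SE 0.27, adjusted p by limma 0.030). CD44-AS1 overlaps CD44 on the other strand.

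CD47 (Entrez gene 961, chr3:108043094-108091862, minus strand) was at 0.92, 1 and 0.97 FPKM in the 3 controls against 1.75, 2.71 and 0.80 FPKM in the 3 EFTUD2 libraries. Replicates 1 and 2 lay above all controls and replicate 3 below all of them, although with median-of-ratios scaling replicate 3 (0.907) lay above control replicate 1 (0.860). The mean was 0.963 ± 0.0404 FPKM (SD, n = 3) in controls and 1.75 ± 0.955 FPKM (SD, n = 3) with EFTUD2, a log2 fold change of 0.43 (SE 0.25, 95% confidence interval -0.18 to 1.03, adjusted p by limma 0.46, exact permutation p = 0.4, two-sided). Without EFTUD2 replicate 3 the fold change was 0.70 (SE 0.14, adjusted p by limma 0.10). CD24 (Entrez gene 100133941, chr6:106969831-106975627, minus strand) was at 12.2, 10.6 and 12.3 FPKM in the 3 controls against 16.1, 26.1 and 5.14 FPKM in the 3 EFTUD2 libraries. Here too replicates 1 and 2 were above and replicate 3 below all controls. The mean was 11.7 ± 0.931 FPKM (SD, n = 3) in controls and 15.8 ± 10.5 FPKM (SD, n = 3) with EFTUD2, a log2 fold change of 0.16 (SE 0.50, 95% confidence interval -1.02 to 1.34, adjusted p by limma 0.88, exact permutation p = 0.8, two-sided). It was 0.76 (SE 0.20, adjusted p by limma 0.16) without EFTUD2 replicate 3 and -0.31 without EFTUD2 replicate 2, so its sign rests on a single library. CD24 has processed pseudogenes of nearly the same sequence, and how reads were divided among them is uncertain.

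Without EFTUD2 replicate 3, limma called CD44 higher, where 0.691% of all genes were called higher, and LIN28B lower, where 0.0697% were. The unadjusted p of LIN28B by limma was 0.000307 there and 0.000235 with all 6 libraries, so only its adjusted p was smaller. In those 5 libraries 3 markers (CD44, CD47 and CD24) lay above all controls, beside 14.7% of all genes, and LIN28B lay below all controls, beside 25.2%. When libraries were weighted by their spread around the fit (limma array weights), CD44 and CD47 were called higher, beside 5.32% of all genes, and LIN28B lower, beside 1.92%. These weights were estimated from the same values, with no separate measure of quality, and their estimation stopped before convergence.

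**Figure D3:**
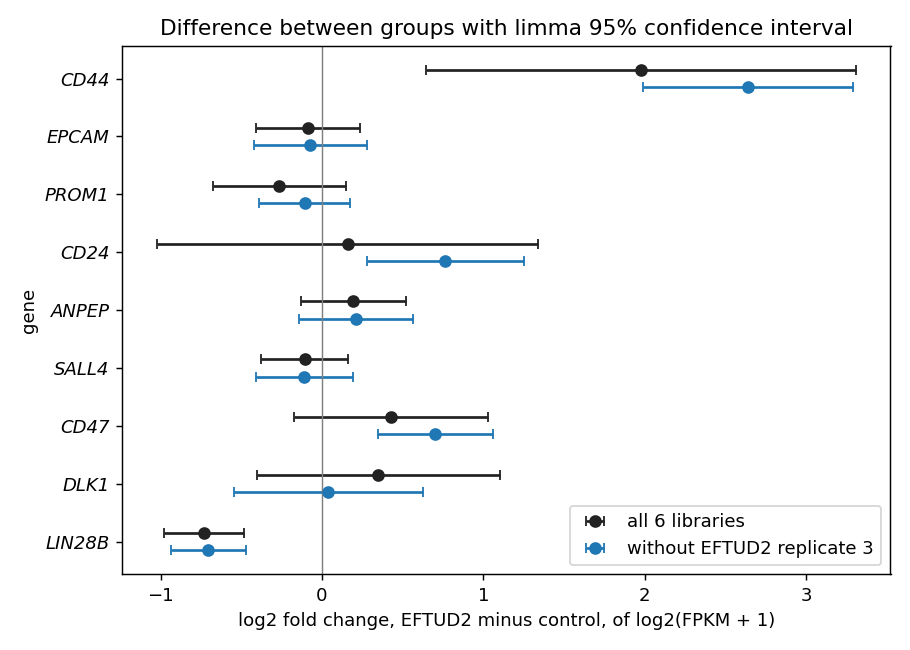
Log2 fold change of FPKM + 1 (x axis, EFTUD2 minus control) with the limma 95% confidence interval for each marker, from all 6 libraries (black) and without EFTUD2 replicate 3 (blue). The intervals of CD44 and LIN28B lie to 1 side of 0 in both, and those of CD24 and CD47 do so without replicate 3.

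The promoters of CD44 and CD47 are printed because these genes were high in the same libraries, as was CD24, whose windows are not printed. The 250 bases before the RefSeq start (GRCh38.p14) are shown, with the GC box GGGCGG, searched on both strands, in capitals. The gene spans given above are from GENCODE and begin further upstream for CD44 and CD47. The printed windows therefore lie inside these spans and are not upstream of every annotated start.
CD44 chr11:35138921-35139170, plus strand: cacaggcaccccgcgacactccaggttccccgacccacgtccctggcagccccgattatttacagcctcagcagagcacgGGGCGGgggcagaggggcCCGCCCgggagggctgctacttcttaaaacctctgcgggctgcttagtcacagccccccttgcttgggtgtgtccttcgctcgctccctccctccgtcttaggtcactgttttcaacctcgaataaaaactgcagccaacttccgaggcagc
CD47 chr3:108091032-108091281, minus strand: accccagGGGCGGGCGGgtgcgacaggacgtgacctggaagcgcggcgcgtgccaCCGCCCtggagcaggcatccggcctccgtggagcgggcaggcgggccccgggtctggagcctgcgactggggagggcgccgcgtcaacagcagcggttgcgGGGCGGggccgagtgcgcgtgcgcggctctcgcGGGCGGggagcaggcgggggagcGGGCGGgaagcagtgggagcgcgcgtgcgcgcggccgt
The CD44 window held 2 GC boxes and the CD47 window 6, overlapping matches counted separately. The CCAAT box, the TATA box and the AP-1 motif, also searched, had 0 matches in both. The windows of CD24 held 1, 0 and 1 GC boxes, and 1 of them also held a CCAAT box. Of 35116 promoters of this length, 42.6% held a GC box. A match does not show binding.

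CD44, CD47 and CD24 were highest in EFTUD2 replicate 2 and next in replicate 1. The excess over the control mean in replicate 1, as a share of that in replicate 2, was 0.455 for CD44, 0.450 for CD47 and 0.307 for CD24. For replicate 3 the same share was 0.0739 for CD44, -0.0935 for CD47 and -0.457 for CD24, so that CD24 was well below its control level there. Several genes named for other reasons had shares near that of CD44 in replicate 1 and small shares in replicate 3. These were 0.453 and 0.0535 for MSN (moesin, which links CD44 to actin), 0.389 and 0.0468 for VIM (the intermediate filament of mesenchymal cells), 0.490 and 0.0589 for KRT17 (a keratin of basal epithelium) and 0.422 and 0.0232 for CXCR4 (a chemokine receptor), for replicates 1 and 3. Other named genes differed more from CD44, with 0.934 and 0.193 for SPP1 (osteopontin) and 0.410 and 0.225 for JAG2 (a Notch ligand). VIM was at 0.06, 0.08 and 0.12 FPKM in controls and at 23.2, 59.6 and 2.87 FPKM with EFTUD2. KRT17 was at 1.12, 1.80 and 1.32 FPKM in controls and at 66.9, 135 and 9.29 FPKM with EFTUD2. Both followed the order of CD44 over the EFTUD2 libraries.

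VIM belongs to a list of 14 fibroblast markers, of which 7 were tested and 2 were higher (VIM and COL3A1), 1 lower (TAGLN) and 4 overlapping. TAGLN, an actin-binding protein of contractile cells, had 23.1, 29.4 and 24.1 FPKM in controls and 13.3, 6.80 and 17.1 FPKM with EFTUD2, a log2 fold change of -1.06 (SE 0.30, adjusted p by limma 0.40). The summed level of the list was 55.1 to 61.7 FPKM in controls and 63.2 to 95.8 FPKM with EFTUD2, of which VIM made 59.6 of the 95.8 FPKM in EFTUD2 replicate 2, and COL1A2 was at 0 in all libraries. KRT17 belongs to a list of 12 basal and squamous markers, of which 7 were tested and 2 were higher (KRT17 and KRT14), 2 lower (S100A2 and KRT15) and 3 overlapping. S100A2, a calcium-binding protein, had 3.57, 4.41 and 3.71 FPKM in controls and 1.29, 1.08 and 0.54 FPKM with EFTUD2, a log2 fold change of -1.33 (SE 0.18, adjusted p by limma 0.21), and KRT15 had a log2 fold change of -0.52 (SE 0.10, adjusted p by limma 0.27). Genes of this list thus differed in direction. The sum of the list was 43.3 to 61.6 FPKM in controls and 44.98 to 206 FPKM with EFTUD2, of which KRT17 made 135 of the 206 FPKM in EFTUD2 replicate 2, and KRT5 was at 0 in all libraries. Among other cell types, 5 macrophage markers were tested (1 higher, CD14, 0 lower and 4 overlapping, sum 778 to 2282 FPKM in controls and 887 to 1751 FPKM with EFTUD2, TYROBP at 0). LYZ made 2261 of the 2282 FPKM in control replicate 1, and PTPRC was at no more than 0.02 FPKM in any library. Of the endothelial markers 6 were tested (2 higher, CDH5 and VWF, 2 lower, PECAM1 and ESAM, and 2 overlapping, sum 16.9 to 19.98 and 5.90 to 11.4 FPKM), and of the cholangiocyte markers 6 were tested (1 higher, SPP1, 1 lower, KRT19, and 4 overlapping, sum 576 to 905 and 714 to 1488 FPKM). ESAM made 15.7 of the 19.98 FPKM of the endothelial sum in control replicate 3. SPP1 made 1210 of the 1488 FPKM of the cholangiocyte sum in EFTUD2 replicate 2. The part of VIM, KRT17 and these lists in the CD44, CD47 and CD24 values was not tested.

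The genes with the pattern most like CD44 over the 6 libraries, by Pearson r of log2(FPKM + 1) among 2631 candidates, were PRSS21 (r = 0.99965), ALPP (0.99942) and GSTP1 (0.99919). PRSS21, a membrane-anchored serine protease, was at 4.79, 11.7 and 0.63 FPKM with EFTUD2 and at most 0.06 FPKM in controls. GSTP1, a glutathione S-transferase, was at 9.12, 22.3 and 1.08 FPKM with EFTUD2 and at most 0.13 FPKM in controls. Both, like CD44, were nearly absent from control libraries. ALPP, placental alkaline phosphatase, was at 9.53, 28.7 and 0.85 FPKM with EFTUD2 and at most 0.03 FPKM in controls, but has close paralogs, so its reads may be divided among them. For CD47 the nearest were EVA1C (0.99857), IFIT3 (0.99554) and EID1 (0.99551), and for CD24 they were SYDE1 (0.9935), APOL2 (0.98916) and SECTM1 (0.98816). These correlations are over 6 libraries that share their group means and are descriptions only.

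CD44 partners and immune checkpoint genes, which include partners of CD47 and CD24, were read from lists. Of 14 CD44 ligands, sheddases and cytoskeletal partners, 11 were tested, 0 passed the adjusted threshold, 3 were higher, 3 were lower and 5 overlapped (median log2 fold change -0.04). SPP1 (osteopontin, a CD44 ligand) was at 173, 441 and 455 FPKM in controls and at 1154, 1210 and 521 FPKM with EFTUD2, a log2 fold change of 1.46 (SE 0.47, adjusted p by limma 0.40). MSN was at 0.03, 0.06 and 0.14 FPKM in controls and at 9.76, 21.45 and 1.22 FPKM with EFTUD2 (2.92, SE 0.76, adjusted p by limma 0.40), whereas RDX (radixin, its relative) had a fold change of -0.46 (SE 0.15) and SRGN (serglycin) of 0.95 (SE 0.28). Of 12 genes on the checkpoint list, 10 were tested and 0 were called. Among those tested, 0 were higher, 1 was lower (PVR, log2 fold change -0.35, SE 0.17) and 9 overlapped, with a median of -0.13. SIRPA, named above with CD47, was among the overlapping genes (-0.42, SE 0.25).

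Of the fetal and ductal markers, EPCAM (Entrez gene 4072, chr2:47345158-47387601, plus strand) was the most abundant, at 86.7, 114.7 and 111.5 FPKM in the 3 controls against 103.9, 93.1 and 95.1 FPKM in the 3 EFTUD2 libraries. The groups overlapped, and only 3.25% of genes had a higher control mean. The mean was 104.3 ± 15.3 FPKM (SD, n = 3) in controls and 97.4 ± 5.76 FPKM (SD, n = 3) with EFTUD2, a log2 fold change of -0.09 (SE 0.14, 95% confidence interval -0.41 to 0.23, adjusted p by limma 0.75, exact permutation p = 0.6, two-sided). The interval included 0 with and without EFTUD2 replicate 3. Among 12 EPCAM relatives and partners, all tested, 0 were called, 2 were higher, 1 was lower and 9 overlapped (median -0.06). CLDN7, a claudin that binds EPCAM, was at no more than 0.02 FPKM in controls and at 0.40, 1.01 and 0.12 FPKM with EFTUD2, and CDH1 (E-cadherin) had a log2 fold change of 0.36 (SE 0.15, adjusted p by limma 0.40).

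DLK1 (Entrez gene 8788, chr14:100725705-100738224, plus strand) was at 23.25, 12.8 and 15.3 FPKM in the 3 controls against 15.9, 18.4 and 33.5 FPKM in the 3 EFTUD2 libraries. The highest of all libraries was EFTUD2 replicate 3, the next control replicate 1, and the groups overlapped. The mean was 17.1 ± 5.45 FPKM (SD, n = 3) in controls and 22.6 ± 9.51 FPKM (SD, n = 3) with EFTUD2, a log2 fold change of 0.35 (SE 0.32, 95% confidence interval -0.41 to 1.10, adjusted p by limma 0.59, exact permutation p = 0.5, two-sided). Without EFTUD2 replicate 3 it was 0.04. The genes most like DLK1 over the 6 libraries were KMT5C (r = 0.99497), GADD45B (0.99478) and DUSP1 (0.99391). DUSP1, an immediate-early phosphatase, was at 43.9, 10.2 and 13.8 FPKM in controls and at 15.6, 19.45 and 107.7 FPKM with EFTUD2, with the same libraries on top. Of 14 genes of the DLK1 and Notch list, 13 were in the table and 11 were tested, of which 0 were called, 1 was higher, 1 was lower and 9 overlapped (median 0.12). JAG2, a Notch ligand, was at 0.18, 0.08 and 0.11 FPKM in controls and at 0.61, 1.31 and 0.39 FPKM with EFTUD2, and DLL3 had a log2 fold change of -0.21 (SE 0.09, adjusted p by limma 0.40).

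PROM1 (Entrez gene 8842, chr4:15963076-16084378, minus strand, overlapped on the same strand by FGFBP2) was at 2.60, 2.47 and 3.07 FPKM in the 3 controls against 2.57, 2.31 and 1.49 FPKM in the 3 EFTUD2 libraries. The groups overlapped by a small margin, with EFTUD2 replicate 3 the lowest. The log2 fold change was -0.26 (SE 0.17, 95% confidence interval -0.68 to 0.15, adjusted p by limma 0.48), and -0.11 without that library, for means of 2.71 ± 0.316 and 2.12 ± 0.564 FPKM (SD, n = 3 each, exact permutation p = 0.2, two-sided). ANPEP (Entrez gene 290, chr15:89784889-89815401, minus strand) was at 64.3, 78.45 and 88.9 FPKM in the 3 controls against 92.4, 85.2 and 85.6 FPKM in the 3 EFTUD2 libraries. Its 3 EFTUD2 libraries were close together and control replicate 3 lay among them. The log2 fold change was 0.19 (SE 0.14, 95% confidence interval -0.13 to 0.52, adjusted p by limma 0.51), for means of 77.2 ± 12.3 and 87.7 ± 4.01 FPKM (SD, n = 3 each, exact permutation p = 0.3, two-sided). Of 9 relatives of PROM1 and ANPEP, 7 were tested, of which 0 were called, 2 were higher, 1 was lower and 4 overlapped (median -0.02). DPP4, a surface peptidase, had a log2 fold change of -0.22 (SE 0.11), ERAP1, an aminopeptidase of the endoplasmic reticulum, of 0.30 (SE 0.12), and MME (neprilysin) of 0.35 (SE 0.14).

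SALL4 (Entrez gene 57167, chr20:51782331-51802520, minus strand) was at 0.70, 0.33 and 0.55 FPKM in the 3 controls against 0.36, 0.46 and 0.41 FPKM in the 3 EFTUD2 libraries. It was low in every library, with all EFTUD2 values inside the range of the controls. The mean was 0.527 ± 0.186 FPKM (SD, n = 3) in controls and 0.41 ± 0.05 FPKM (SD, n = 3) with EFTUD2, a log2 fold change of -0.11 (SE 0.11, 95% confidence interval -0.38 to 0.16, adjusted p by limma 0.64, exact permutation p = 0.4, two-sided). Of 16 SALL4 relatives and partners, chiefly subunits of the NuRD repressor complex that SALL4 recruits, 15 were tested, of which 0 were called, 1 was higher (MTA3, 0.13, SE 0.10), 2 were lower (SALL1, -0.26, SE 0.14, and GATAD2A, -0.30, SE 0.15) and 12 overlapped, with a median of -0.19.

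**Figure D4:**
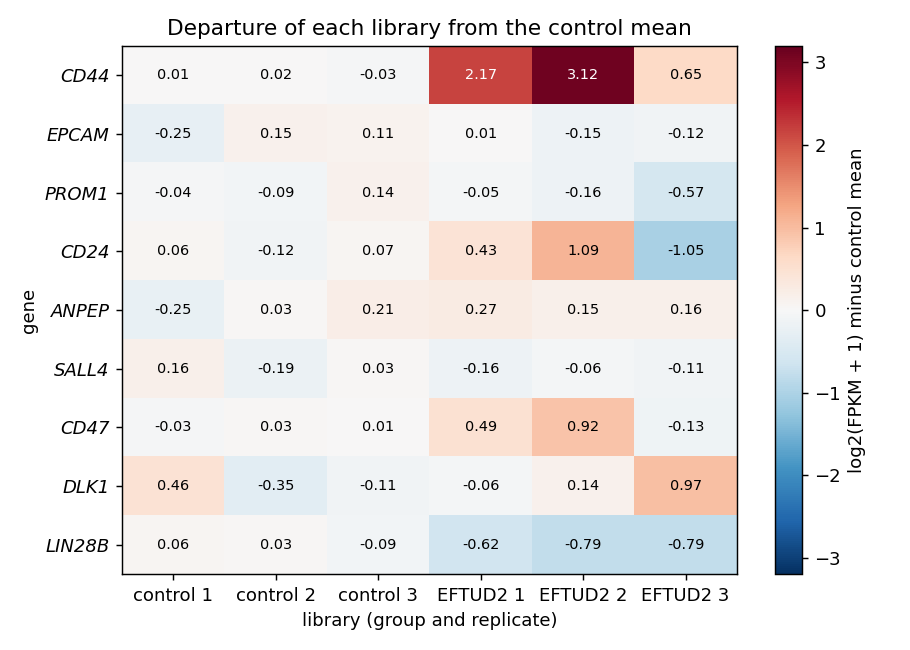
Log2(FPKM + 1) of each marker in each library minus its control mean (color scale from blue, lower, to red, higher, with the value in each cell). CD44, CD24 and CD47 are highest in EFTUD2 replicate 2 (3.12, 1.09 and 0.92), whereas LIN28B lies between -0.79 and -0.62 in all 3 EFTUD2 libraries.

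A further list of 21 stem and progenitor markers gave 16 tested genes, of which 0 were called, 3 were higher, 4 were lower and 9 overlapped (median log2 fold change 0.03). KRT19, the keratin of ductal and progenitor cells, was at 314, 358 and 373 FPKM in controls and at 163, 153 and 103 FPKM with EFTUD2, a log2 fold change of -1.34 (SE 0.19, adjusted p by limma 0.21). CD9, a tetraspanin of the cell surface, was at 26.9, 26.5 and 29.4 FPKM in controls and at 42.05, 45.4 and 49.6 FPKM with EFTUD2, a log2 fold change of 0.71 (SE 0.11, adjusted p by limma 0.21). The groups of both genes did not overlap, and KRT19 was lowest in EFTUD2 replicate 3. KRT7, the other ductal keratin of the list, was chosen after its values were seen and had 0.61, 0.95 and 1.34 FPKM in controls and 24.7, 61.2 and 0.78 FPKM with EFTUD2. Its groups overlapped, with EFTUD2 replicates 1 and 2 above all controls and replicate 3 among them, and its log2 fold change was 2.87 (SE 1.19, adjusted p by limma 0.40). BMI1, a Polycomb protein, was at 16.4, 20.1 and 18.65 FPKM in controls and at 13.4, 14.1 and 6.98 FPKM with EFTUD2 (-0.69, SE 0.25, adjusted p by limma 0.40). CXCR4 was at 0.08, 0.13 and 0.08 FPKM in controls and at 1.25, 2.83 and 0.16 FPKM with EFTUD2 (0.97, SE 0.39, adjusted p by limma 0.40), in the order of CD44.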

How the data were processed

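RNA-seq of 6 Hep G2 libraries was analysed, 3 control and 3 EFTUD2, grouped by their labels. The authors extracted RNA with TRIzol, selected poly-A RNA, sequenced it on the BGISEQ-500 and deposited FPKM values per gene, rounded to 2 decimals. The submitters' processing notes name hg38, HISAT2, Bowtie2, RSEM and DESeq2 without roles. The depth is unknown, since no read counts were used. The table held 0 columns of other samples. Values were compared as log2(FPKM + 1), which understates the change of low genes, for genes averaging 0.1 FPKM or more. The test was limma (lmFit, eBayes with trend, version 3.58.1, run in R 4.3.3). Its p-values were adjusted by Benjamini-Hochberg over all genes tested, with a threshold of 0.05. An exact permutation test, two-sided, was added for each single gene. No library was dropped or imputed unless stated. The limma script was tested on simulated data.

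The markers and gene lists were chosen with earlier results of these data known. From each list the text names genes past the threshold, otherwise up to 4 genes with the largest fold changes whose groups did not overlap, and for markers ranging over at least 1 on the log2 scale the 3 genes of highest Pearson r, among genes averaging 1 FPKM or more that ranged over at least 1 themselves. KRT7, DICER1, HMGA2, TRIM71, IGF2BP2, IGF2BP3, GPC3, IGF2, AFP, SIRPA, LYZ and PTPRC and the shares of excess were chosen after their values were seen. Alternatives were pseudocounts of 0.1 and 0.01, no filter or at least 1 FPKM, median-of-ratios and quantile scaling, robust empirical Bayes, array weights, a replicate block and each library left out. Coordinates and 3′ UTRs came from GENCODE 29 (GRCh38), microRNAs and promoters from RefSeq (GRCh38.p14). Promoters matched 6 of the 9 markers. Tables were made with pandas 2.3.3 and scipy 1.17.1 under Python 3.11.15, and plots with matplotlib 3.10.9.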

Additional observations from a re-analysis of the deposited data

How the results depend on the processing

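The count of genes past the threshold was 0 in the main analysis, 1 with no filter (an unannotated transcript, BGI_novel_G001005, at 0 FPKM in all controls and at 0.14, 0.14 and 0.15 FPKM with EFTUD2), 1246 with array weights, whose estimation stopped before convergence, and 0 to 131 with 1 library left out, the 131 being without EFTUD2 replicate 3. Of the 9 markers, 0 were called in the main analysis, 3 with array weights and 0 to 2 with 1 library left out, 2 of them without EFTUD2 replicate 3. The number of markers whose groups did not overlap was 2, and 2 to 4 with 1 library left out, reaching 4 without control replicate 1, control replicate 2 or EFTUD2 replicate 3. The shares of all genes in these settings were 12.8%, 9.74% and 14.7% higher and 26.6%, 23.9% and 25.2% lower, against 7.92% and 19.4% with all libraries. The fold change of EPCAM turned to 0.028 with median-of-ratios scaling and that of ANPEP to -0.033 with array weights, and that of CD24 ranged from -0.31 (without EFTUD2 replicate 2) to 0.76 with 1 library left out. The cause was not tested. PROM1, CD44, CD47, DLK1, LIN28B and SALL4 kept their direction in every alternative run, SALL4 having no value at a mean of at least 1 FPKM. The deviations of same-numbered libraries from their group means correlated at -0.30, 0.35 and -0.09. Taken from means of 3 libraries, such deviations cannot decide whether libraries were paired by number. Control replicate 1 correlated best with EFTUD2 replicate 3 (0.38). With the replicate block, 0 genes were called, and LIN28B had a fold change of -0.73 with an adjusted p of 0.42 by limma. FPKM of a few hundredths, as for CD44 in controls, lie near the rounding of the table, and with 3 libraries a group an exact test cannot go below p = 0.1.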
